A study of Homo sapiens with 2 samples.

Results

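The AMPK-related kinases downstream of LKB1 were followed in Huh7 cells after knockdown of BRF2. The group was taken as SIK1, SIK2, SIK3, NUAK1, NUAK2, MARK1, MARK2, MARK3, MARK4 and SNRK, chosen by gene name, and all 10 were found among the 61541 genes of the deposited table. LKB1, encoded by STK11, is a master kinase that switches on AMPK and a family of related kinases by phosphorylating a threonine in the activation loop of their kinase domains. The salt-inducible kinases SIK1, SIK2 and SIK3 phosphorylate CRTC coactivators and class IIa histone deacetylases, which are then held in the cytoplasm by 14-3-3 proteins. In liver, this restrains CREB-driven genes of gluconeogenesis, and cAMP signaling through PKA relieves the restraint. NUAK1 and NUAK2 act on myosin phosphatase and cell adhesion. MARK1 to MARK4, the relatives of the polarity kinase Par-1, phosphorylate microtubule-associated proteins. SNRK is a more distant relative.

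Huh7 cells are an established line from a human liver cancer. RNA-seq was performed on cells given a negative control siRNA (Huh7-NC) and on cells given an siRNA against BRF2 (Huh7-si), a subunit of an RNA polymerase III initiation factor, with 1 library per condition and no other agent named in the labels. No difference below therefore has a replicate check, and the tests compare these 2 libraries, not the conditions. The libraries held 22852648 and 22089016 estimated reads on genes, and the intervals given are 95% exact intervals that cover counting error only. CPM denotes a gene's reads after scaling for the size of its library, and a gene at 0 could still have up to 3 reads, or 0.131 CPM in the control and 0.136 CPM in the knockdown library. BRF2 had 1281 control and 364 knockdown reads, a log2 fold change of -1.77 (-1.94 to -1.60). All 8 hepatocyte markers examined had reads, with ALB at 3957 and 4077 TPM (abundance per gene length, scaled to the library) and AFP at 3391 and 4014 TPM. Of these 8, APOB was called higher (log2 fold change 1.04) by the call rule given below and none lower, while with TMM scaling APOB was not called (0.81) and APOA1 was called lower (-1.05). Of 8 markers of other cell types, CD3E was at 0 in both libraries, KRT19 was at 178 and 176 TPM, CD68 was at 8.30 and 10.7 TPM, and their summed level was 188 and 189 TPM. LYVE1, with 0 and 6 reads, was the 1 gene of these called higher.

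The activation loop site shows what the 10 kinases share at the level of sequence. Each stretch below holds 30 coding bases around the codon of the threonine that LKB1 phosphorylates, with that codon in capitals, read from GENCODE release 29 (GRCh38). The site was located as a threonine downstream of the DFG motif, followed after 1 further residue by cysteine, glycine and serine. For each gene the longest annotated protein with this site was taken, such as 672 residues for NUAK2 and 776 for MARK3. Exon and codon numbers are those of its transcript and need not match other numberings of the site.
SIK1 (chr21:43421309-43421338, minus strand, exon 6 of 14, codon 182): ggagagcctctgtccACGtggtgtgggagc
SIK2 (chr11:111700915-111700944, plus strand, exon 5 of 15, codon 175): ggtgaactgctggcaACAtggtgtggcagc
SIK3 (chr11:116897259-116897288, minus strand, exon 5 of 24, codon 221): gggcagctgctgaagACCtggtgtggcagc
NUAK1 (chr12:106072778-106072807, minus strand, exon 5 of 7, codon 211): gataagttcttacaaACGttttgtgggagt
NUAK2 (chr1:205306242-205306271, minus strand, exon 5 of 7, codon 252): ggcaagttcctgcagACAttctgtgggagc
MARK1 (chr1:220618385-220618414, plus strand, exon 8 of 18, codon 215): gggaacaaattggacACAttttgtggaagc
MARK2 (chr11:63899949-63899978, plus strand, exon 8 of 19, codon 208): gggaacaagctggacACCttctgtggcagt
MARK3 (chr14:103465632-103465661, plus strand, exon 9 of 19, codon 234): ggcggtaaactcgacACGttttgtggcagt
MARK4 (chr19:45271547-45271576, plus strand, exon 8 of 17, codon 214): ggatcgaagctggacACGttctgcgggagc
SNRK (chr3:43303705-43303734, plus strand, exon 4 of 8, codon 173): gggaagaagctcactACAagctgtggatct

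The codon right after the threonine encodes tryptophan in the 3 SIK genes, phenylalanine in the NUAK and MARK genes, and serine in SNRK. The AMPK catalytic subunit genes PRKAA1 and PRKAA2 also encode serine there. Within subfamilies, 21 to 23 of the 30 bases were identical between SIK genes, 22 between the NUAK genes and 20 to 24 between MARK genes. SNRK shared 13 to 19 bases with the other members, and 17 and 18 with the PRKAA genes.

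The SIK1 row could not be read on its own, because the table also holds SIK1B (ENSG00000275993), a near-identical copy. In GRCh38, SIK1 (ENSG00000142178) lies at chr21:43414483-43427189 on the minus strand and SIK1B at chr21:6111134-6123739 on the plus strand. Over the shared part of their longest transcripts, 4698 bases were identical and 7 differed, of which 5 lay after the coding sequence. The coding sequences of 2349 bases differed at 2 positions counted from the start codon, C1844T and C1848T (SIK1 base first, SIK1B base last), of which the first changes codon 615 and the second leaves the residue of codon 616 the same. Both differing bases fall in exon 13 and are in capitals below.
SIK1 (chr21:43417660-43417689, minus strand): ccaggtgtgccaggCcccCgccagccgggc
SIK1B (chr21:6120572-6120601, plus strand): ccaggtgtgccaggTcccTgccagccgggc

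The SIK1 row held 1.90 reads in the control library and 7.23 reads after knockdown, which is 0.0831 and 0.327 CPM. The SIK1B row held 1308 and 2177 reads. SIK1 thus took 2 of 1310 rounded reads of the pair in Huh7-NC (0.153%, exact Clopper-Pearson interval 0.0185 to 0.550) and 7 of 2184 in Huh7-si (0.321%, 0.129 to 0.659). These intervals do not cover how reads that match both copies were assigned, which is not given in the sources used here. Which copy the reads came from cannot be told from the table, so the sum of both rows was added as a reading of SIK1 after these values were seen.

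None of the 10 kinases passed the call rule, and 9 of 10 had a higher CPM in Huh7-si. A gene was called when its CPM differed at least 2-fold and the two-sided exact binomial test on its rounded reads gave an unadjusted p under 0.05, the fold and p limits of the study. Of 26379 genes with reads, 10.4% were called higher and 1.02% lower in Huh7-si, against 0 of 10 members in each direction. These were 2742 genes higher and 270 lower, and with TMM scaling, a factor that centers the bulk of genes, 1822 and 572. With a limit of 1.5-fold, 3 members were called higher (SIK3, NUAK2 and SNRK), beside 17.6% of all genes higher and 2.87% lower. After TMM scaling NUAK2 (log2 fold change 0.73) stayed past 1.5-fold, and SIK3 (0.56) and SNRK (0.37) fell short of it. With no fold limit, 7 members were higher at p under 0.05 and 1 (MARK4) was lower, beside 30% and 13.9% of all genes. The 10 members had a median log2 fold change of 0.53. Over the 17921 genes with 10 or more reads the value was 0.21, with 64.8% of these genes above 0. TMM scaling moved every log2 fold change by -0.22, to medians of 0.31 for the members and -0.02 for these genes, so that any value below between 0 and 0.22 turned negative with it.

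**Figure D1:**
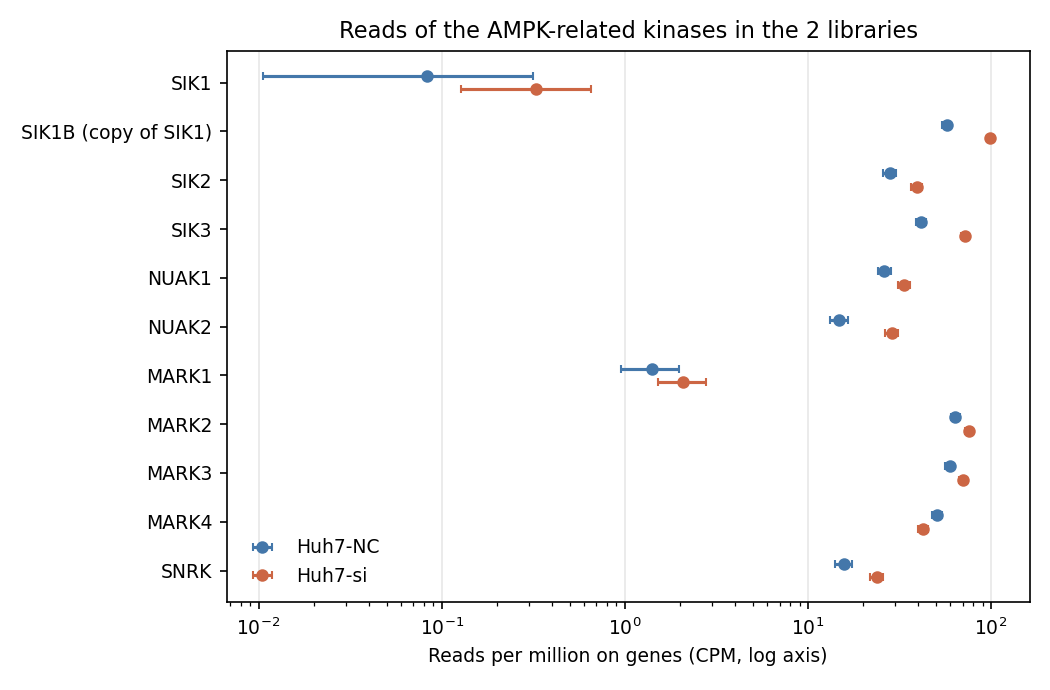
CPM of each kinase in Huh7-NC and Huh7-si on a log axis, with 1 point per library and exact 95% counting intervals as error bars, and with the copy SIK1B in a row of its own. MARK4 sits lower in Huh7-si and every other row sits higher, and the SIK1 row (0.0831 and 0.327 CPM) and MARK1 lie far below the rest with intervals that overlap.

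Among the salt-inducible kinases, SIK3 and the sum of SIK1 and SIK1B were higher in Huh7-si by similar amounts, and SIK2 by less from CPM but not from TPM. SIK3 (ENSG00000160584; chr11:116843402-117098437, minus strand), which acts on the same CRTC and deacetylase substrates as its relatives, had 948 control and 1583 knockdown reads. Its CPM was 41.5 and 71.7, a log2 fold change of 0.79 (0.67 to 0.91, exact binomial p = 1.2e-41). SIK1, a cAMP-inducible member of the family, summed with SIK1B to 1310 and 2184 reads, a log2 fold change of 0.79 (0.69 to 0.89, exact binomial p = 1.5e-56). These intervals lay wholly above 0, but neither gene reached the 2-fold limit. The SIK1 row alone gave a log2 fold change of 1.98 with an interval of -0.54 to 5.16 (exact binomial p = 0.1), too few reads to place it.

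SIK2 (ENSG00000170145; chr11:111602391-111730853, plus strand), a SIK abundant in fat tissue, had 637.5 reads in the control library and 865 reads after knockdown, or 27.9 and 39.2 CPM. The log2 fold change was 0.49 (0.34 to 0.64, exact binomial p = 7.3e-11). It was smaller than that of SIK3 by 0.30 (0.11 to 0.49) and than that of SIK1 plus SIK1B by 0.30 (0.12 to 0.48), differences of log2 fold changes that do not depend on how the libraries' reads are scaled. From TPM these gaps were absent, with SIK2 at 0.99, SIK3 at 0.95 and SIK1 plus SIK1B at 1.01 (0.97 for the SIK1B row alone). The annotated span of SIK2 overlaps PPP2R1B on the opposite strand, which had 1011 and 1166 reads. Whether the counting used strand is not given in the sources used here, and the part of such overlaps in the result was not tested.

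The NUAK kinases differed from each other. NUAK2 (ENSG00000163545; chr1:205302059-205321791, minus strand), a regulator of actomyosin, had 338 control and 633 knockdown reads, or 14.8 and 28.7 CPM. At 1.94-fold (log2 fold change 0.96, 0.76 to 1.15, exact binomial p = 1.1e-23) it lay closest of the 10 members to the 2-fold limit, apart from the SIK1 row, whose 3.94-fold rested on the few reads given above. NUAK1 (ENSG00000074590; chr12:106063340-106140033, minus strand), also known as ARK5, had 598 and 740 reads, or 26.2 and 33.5 CPM, a log2 fold change of 0.36 (0.20 to 0.51, exact binomial p = 7.1e-06). The log2 fold change of NUAK2 exceeded that of NUAK1 by 0.60 (0.35 to 0.85). No other gene with reads overlaps the span of either.

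Among the MARK kinases, MARK2 and MARK3 differed little between the libraries, and MARK4 was the 1 member that was lower. MARK2 (ENSG00000072518; chr11:63838928-63911019, plus strand), a cell polarity and microtubule kinase, had 1461 reads in the control library and 1667 reads after knockdown, a log2 fold change of 0.24 (0.14 to 0.34, exact binomial p = 3.6e-06). MARK3 (ENSG00000075413; chr14:103385392-103503831, plus strand), also known as C-TAK1, a kinase of CDC25C and KSR1, had 1357 and 1560 reads, with a log2 fold change of 0.25 (0.14 to 0.36, exact binomial p = 3e-06). With TMM scaling these values were 0.01 and 0.03, near the center of all genes.

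MARK4 (ENSG00000007047; chr19:45079288-45305283, plus strand), a microtubule affinity-regulating kinase found at the centrosome, had 1157 control and 936 knockdown reads. Its CPM was 50.6 and 42.4, a log2 fold change of -0.26 (-0.38 to -0.13, exact binomial p = 5.2e-05), and -0.48 with TMM scaling. It was below that of MARK2 by 0.50 (0.33 to 0.66) and below that of MARK3 by 0.51 (0.34 to 0.67). The span that GENCODE gives MARK4 holds further genes on both strands, of which GEMIN7 on the same strand had 851 and 605 reads and TRAPPC6A on the opposite strand had 495 and 323 reads. PPP1R37 (1255 and 1245 reads) and BLOC1S3 (383 and 421 reads) also lie there on the same strand, so the genes in the span did not all move as MARK4 did, and their part in the result was not tested. MARK1 (ENSG00000116141; chr1:220528183-220664461, plus strand), a kinase of tau-type microtubule proteins, had 32 and 46 reads. Its log2 fold change of 0.57 had an interval of -0.11 to 1.27 (exact binomial p = 0.09), so that no difference was detectable at this depth.

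SNRK (ENSG00000163788; chr3:43286512-43424764, plus strand), the sucrose non-fermenting-related kinase, had 358 reads in the control library and 523 reads after knockdown, or 15.6 and 23.7 CPM. The log2 fold change was 0.60 (0.40 to 0.79, exact binomial p = 1.4e-09), and the fold of 1.51 lay just past the 1.5-fold limit. On the opposite strand its span overlaps ANO10 (555 and 511 reads) and the antisense gene SNRK-AS1 (6.46 and 27.5 reads). These are overlaps of gene spans, and their part in the result was not tested.

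Ordered by log2 fold change from CPM, the kinases ran as NUAK2, SIK3, SIK1 plus SIK1B, SNRK, MARK1, SIK2, NUAK1, MARK3, MARK2 and MARK4. Of the 9 pairs of neighbours in this order, MARK2 and MARK4 differed beyond counting error, and the interval of the difference held 0 in the other 8. Neighbours were set by the sorting and so lie close by construction, and the intervals of both pairs with MARK1 were wide because of its few reads. These comparisons cover counting error alone, and the spread between cultures was not measured.

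**Figure D2:**
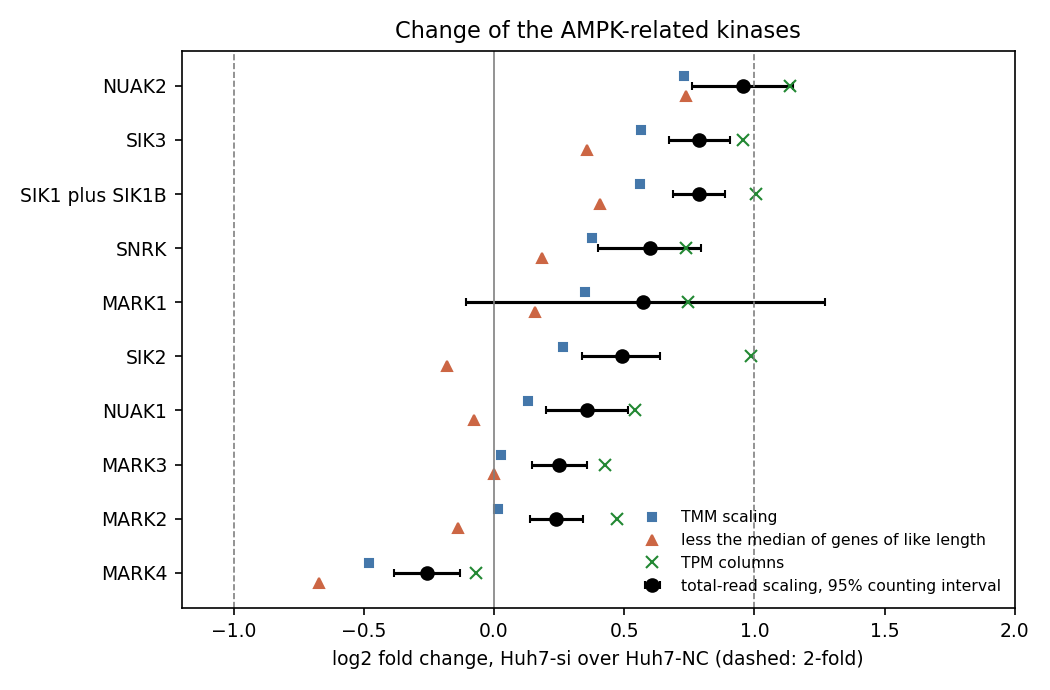
Log2 fold change (Huh7-si over Huh7-NC) of each kinase from CPM (black, with exact 95% counting intervals), with TMM scaling, relative to like-length genes, and from TPM, with dashed lines at 2-fold. The CPM point of NUAK2 (0.96) sits just inside the upper line, MARK4 is below 0 on all 4 scales, and SIK2, NUAK1, MARK2 and MARK3 fall to or below 0 only against genes of like length.

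The differences of most members were of the size seen in genes of like length. The members were long genes, with a median length of 5169.5 bases (3391 to 9622) against 2744 over the genes with 10 or more reads, and the median log2 fold change went from -0.05 in the shortest of 20 length bins to 0.67 in the longest. Against the median of genes of like length, in the same bin, the median of the members was 0.08, with 5 members above 0 and 5 below. NUAK2 lay 0.74 above its bin, higher than 86.9% of the 895 genes of 3310 to 3634 bases. SIK1 plus SIK1B lay 0.41 and SIK3 0.36 above, higher than 78.5% and 75.6% of their bins. MARK4 lay 0.67 below (-0.67), with 6.15% of its bin under it. SNRK (0.18) and MARK1 (0.16) were slightly above, MARK3 was at its bin's median (49.7%), and NUAK1 (-0.08), MARK2 (-0.14) and SIK2 (-0.18) were below. What lies behind the trend with length was not tested.

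**Figure D3:**
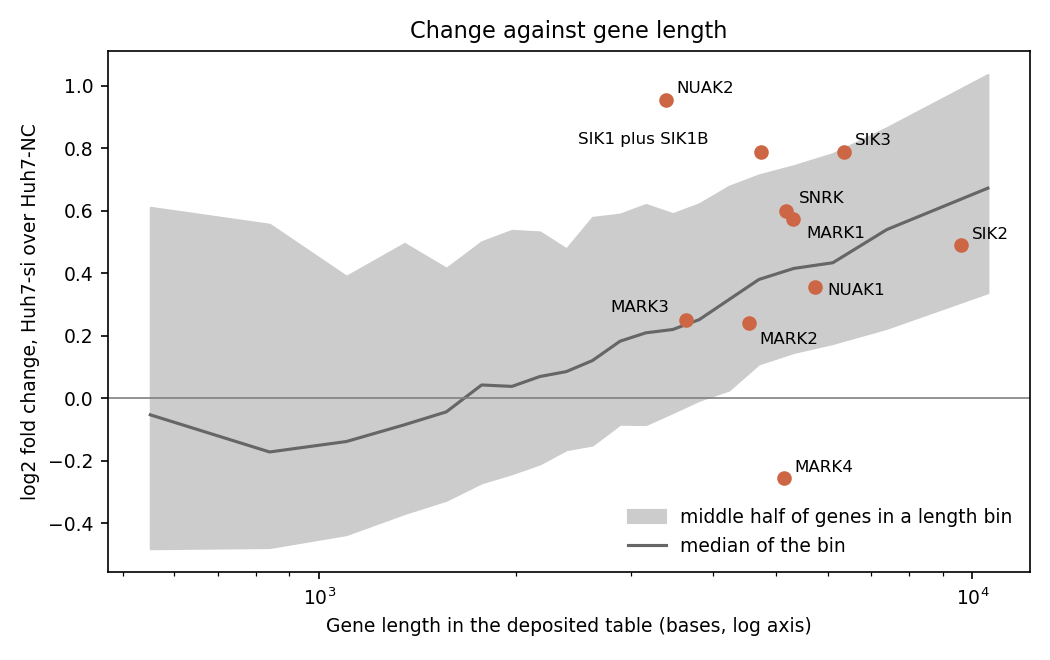
Log2 fold change against gene length on a log axis, with the line at the median of genes with 10 or more reads in each of 20 length bins, the gray band from the 25th to the 75th percentile, and the points the kinases. NUAK2, SIK3 and SIK1 plus SIK1B lie above the band or at its upper edge, MARK4 lies below it, and the others lie inside it.

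Per gene length, MARK2 and MARK3 had the highest levels of the group in both libraries and MARK1 the lowest. In Huh7-NC the order of levels was MARK2 (33.0 TPM), MARK3 (26.6), MARK4 (24.3), SIK1 plus SIK1B (15.1), SIK3 (9.91), NUAK1 (5.53), NUAK2 (5.47), SNRK (3.91), SIK2 (3.46) and MARK1 (0.34). In Huh7-si SIK1 plus SIK1B (30.4 TPM) passed MARK4 (23.2), NUAK2 (12.0) passed NUAK1 (8.05), and SIK2 (6.86) passed SNRK (6.51). MARK2 (45.7), MARK3 (35.8), SIK3 (19.2) and MARK1 (0.57) kept their places. No error can be given for a TPM level from 1 library, so whether neighbours such as NUAK1 and NUAK2 in Huh7-NC differed is not known.

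By TPM, with no error to set beside it, the SIK genes made up more and the MARK genes less of the group in Huh7-si. Summed over the 10 members with SIK1B, the level was 128 TPM in Huh7-NC and 188 TPM in Huh7-si. The MARK genes made up 66.0% of it in Huh7-NC and 55.9% after knockdown, the SIK genes 22.3% and 29.98%, the NUAK genes 8.62% and 10.7%, and SNRK 3.06% and 3.46%. Within the SIK genes the shares hardly moved, with SIK1 plus SIK1B at 53.1% and 53.8%, SIK3 at 34.8% and 34.0%, and SIK2 at 12.1% in both. Within the NUAK genes NUAK2 went from 49.7% to 59.9%. Within the MARK genes MARK4 went from 28.9% to 22%, MARK2 from 39.1% to 43.4% and MARK3 from 31.6% to 34.0%.

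**Figure D4:**
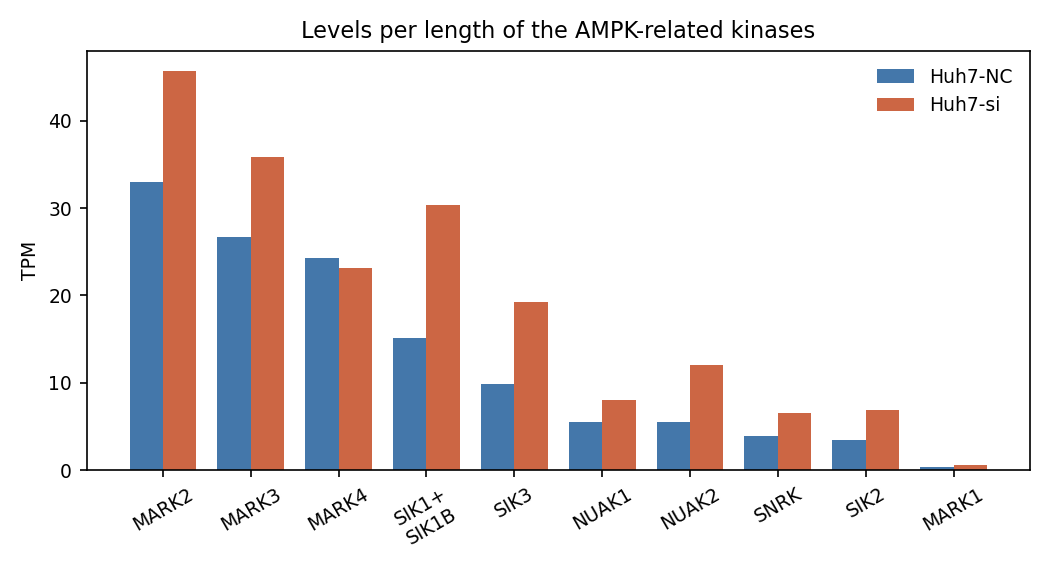
TPM of each kinase in both libraries, ordered by the level in Huh7-NC, with no error bars because each bar is 1 library. MARK2 and MARK3 are the tallest in both, and SIK1 plus SIK1B passes MARK4 in Huh7-si.

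The log2 fold change from TPM lay above that from CPM for every member, which made the difference of MARK4 smaller and the others larger. The log2 fold change from TPM exceeded that from CPM by a median of 0.18 over 13396 genes with 1 TPM or more in both libraries and 10 or more reads. For SIK2 the excess was 0.50 (0.99 from TPM against 0.49 from CPM), larger than in 94.9% of these genes, while the other members lay between 0.14 and 0.24. By TPM, 2 members were at least 2-fold higher (SIK1, on few reads, and NUAK2 at 2.20-fold), and none was 2-fold lower, beside 23.5% and 3.52% of the 20884 genes with TPM above 0 in both. SIK1 plus SIK1B was 2.01-fold higher by TPM. MARK4 was close to level by TPM (log2 fold change -0.07).

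Upstream of the kinases, no gene of the LKB1 complex was called. Of 12 genes of LKB1, its partners and AMPK, 11 had reads. Among these, 1 was called higher and 0 lower, beside 10.4% and 1.02% of all genes. STK11 had 2638 and 2482 reads, a log2 fold change of -0.04 (-0.12 to 0.04) and of -0.26 with TMM scaling, and CAB39, the scaffold of the LKB1 complex, had a log2 fold change of 0.26. The called gene was PRKAA2, an AMPK catalytic subunit, with 152 and 295 reads (log2 fold change 1.01), and it was not called with TMM scaling (0.78). PRKAA1, the other catalytic subunit, had a log2 fold change of 0.68 and PRKAB1, a regulatory subunit, 0.10. Of 7 PKA subunit genes, whose kinase phosphorylates SIKs in response to cAMP, 6 had reads and 0 were called. The 6 had a median of 0.13, or -0.09 after TMM scaling, with PRKAR1A at 0.16, PRKAR2A at 0.26, PRKACA at -0.25 and PRKAR1B at -0.31.

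Of the 5 other AMPK-related kinases, 2 were called higher and 1 lower, all 3 at low counts, beside 10.4% and 1.02% of all genes. They lie outside the members, whose count of calls does not cover them. BRSK1, a kinase of neuronal polarity, had 71 control and 141 knockdown reads (log2 fold change 1.04, 0.62 to 1.47), and with TMM scaling it was not called (0.81). BRSK2, its close relative, had 6 and 40 reads (log2 fold change 2.79, 1.54 to 4.32), and its call was lost with at least 10 reads required in each library. NIM1K had 17 and 6 reads (log2 fold change -1.45, -3.08 to -0.04), and this call was lost after Benjamini-Hochberg adjustment (adjusted exact binomial p = 0.083), with at least 10 reads required in each library and under the exact test of edgeR, which assumes a coefficient of variation of 0.4 here. MELK, a kinase of dividing cells that does not depend on LKB1, was the most abundant of them with 3033 and 2793 reads (log2 fold change -0.07), and HUNK had 213 and 309 reads (0.59).

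Of the SIK substrates, 1 of 7 was called higher and 0 lower, beside 10.4% and 1.02% of all genes. Their median log2 fold change was 0.45, against 0.21 over all genes with 10 or more reads. Relative to genes of like length the median was 0.03. The called gene was HDAC9, a class IIa histone deacetylase, with 89 reads in the control library and 475 reads after knockdown (log2 fold change 2.47, 2.14 to 2.81), and it was called with TMM scaling as well. The others all had log2 fold changes above 0 and under the limit, except that HDAC5 was at -0.03 with TMM scaling. Relative to genes of like length, CRTC1 (-0.08) and HDAC5 (-0.22) were below 0 and the rest above. CRTC2, the CREB coactivator of liver, had 1782 and 2134 reads (0.31), CRTC1 was at 0.45, HDAC5 at 0.20 and HDAC7 at 0.55.

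Among 11 genes known as CREB targets, 5 were called higher and 0 lower, beside 10.4% and 1.02% of all genes. The median log2 fold change was 0.75, against 0.21 over all genes with 10 or more reads. FOS, an immediate early transcription factor, had 293 control and 897 knockdown reads (log2 fold change 1.66, 1.47 to 1.86). DUSP1, a MAP kinase phosphatase, had 1280 and 2695 reads (1.12, 1.03 to 1.22), and PPARGC1A, the coactivator of gluconeogenic genes, had 46 and 136 reads (1.61, 1.12 to 2.13). IRS2, an adaptor of the insulin receptor, had 74 and 149 reads (1.06, 0.65 to 1.48). NR4A3, an orphan nuclear receptor, had 1 and 19 reads, a log2 fold change of 4.30 with a wide interval of 1.64 to 9.67. Its call was lost with at least 10 reads required in each library. PER1, a clock gene, was at 0.73 and CREM, a CREB family member, at 0.10. The 2 below 0, named here after their values were seen, were the gluconeogenic enzymes PCK1 with 46 and 36 reads (-0.30, -0.98 to 0.36) and G6PC1 with 34 and 24 reads (-0.45, -1.27 to 0.34), both with intervals that held 0. With TMM scaling 3 of the 11 were called higher, beside 1822 of 26379 genes, and DUSP1 (0.90) and IRS2 (0.83) were not.

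For the genes around MARK and NUAK, the shares to set beside the calls were 10.4% of all genes higher and 1.02% lower. Of 7 MARK substrate genes, 6 had reads, and MAP2, a microtubule-associated protein of neurons, was called higher with 17 and 35 reads (log2 fold change 1.09), though its TPM was 1.04 and 0.83 and it was not called with TMM scaling. MAP4, the most abundant of them, was at 0.24, PKP2, a desmosome protein, at 0.45, KSR1, a Ras pathway scaffold, at 0.43 and CDC25C, a mitotic phosphatase, at -0.29. Of 8 genes of the polarity complex that opposes Par-1, PARD3B was called higher with 125 and 299 reads (1.31, 1.0 to 1.62) and 0 lower. PARD3B was not called relative to genes of like length (0.64) or with edgeR's exact test. CDC42 (-0.09), PARD3 (-0.10), PRKCI (0.15) and PARD6B (0.07) lay near 0.

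Of the 7 14-3-3 genes, whose proteins bind SIK and MARK substrates, 0 were called, 6 were below 0, and the median log2 fold change was -0.18. YWHAE was at -0.29, YWHAZ at -0.01, YWHAQ at -0.21 and YWHAB at -0.16. Of 6 NUAK partner genes 0 were called, with a median of -0.07. The myosin light chain genes MYL12A and MYL12B were at -0.18 and -0.30, the myosin phosphatase catalytic subunit gene PPP1CB at 0.05, and USP9X, a deubiquitinase that acts on NUAK1, at 0.63. At 1.5-fold 2 of these were called, USP9X and PPP1R12A, the myosin phosphatase targeting subunit that NUAK kinases phosphorylate, with 895 and 1433 reads (0.73, named after its value was seen). Of all genes, 17.6% were called higher at 1.5-fold and 10.4% at 2-fold.

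**Figure D5:**
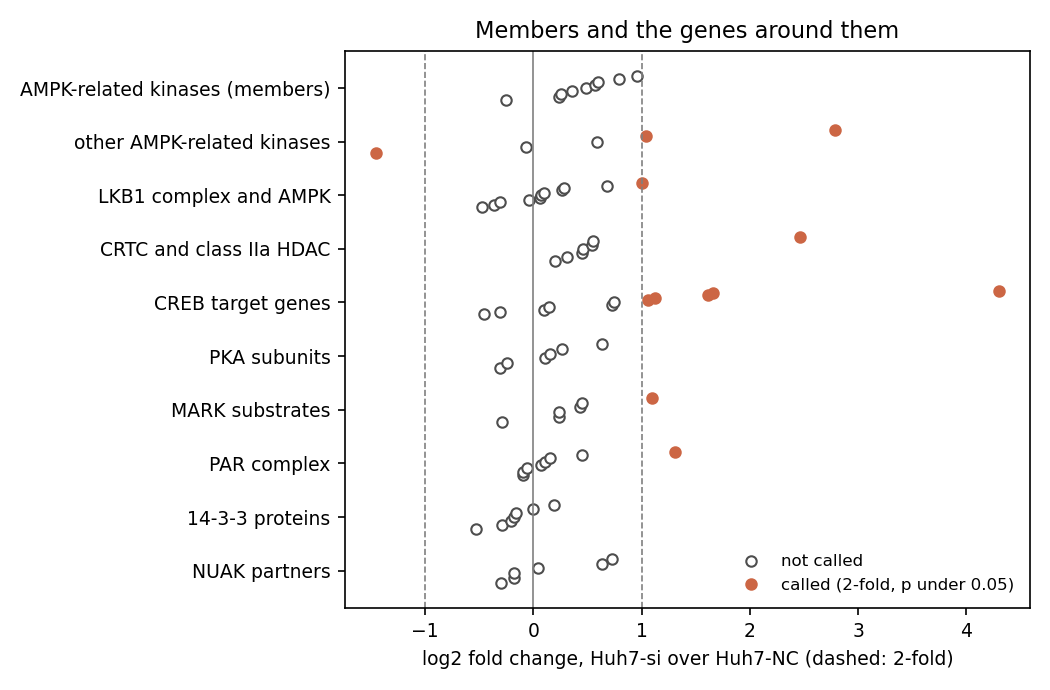
Log2 fold change (Huh7-si over Huh7-NC) of each gene with 10 or more reads over both libraries, by list, with 1 point per gene, filled where the gene was called, and dashed lines at 2-fold. No kinase of the top row is filled (the SIK1 row has too few reads to be drawn), 5 of the CREB target genes are, and most 14-3-3 genes lie below 0.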

How the data were processed

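RNA-seq of Huh7 cells was analyzed with 1 library of each of 2 conditions. The authors deposited, for each gene, an estimated count of reads, partly fractional, and a TPM value for each library. The deposited fold changes and p-values of the authors were not used, and 0 columns of per-sample values were left out. The submitters' processing notes name TopHat2 2.0.12, Bowtie2 2.0.6 and GRCh37. The counting tool, annotation and strandedness are not given in the sources used here. Of the gene identifiers, 94.8% were in GENCODE release 29 (GRCh38), which gave all positions and coding sequences here, whatever build the reads were aligned to.

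The members and gene lists were chosen with earlier results of these data known, and support nothing on their own. Named were the members, BRF2, any called gene of a list and up to 4 genes of a list with the most reads. Estimated counts were rounded to whole numbers for the exact binomial test (SciPy 1.17.1), and CPM was taken over the sum of a library's counts. The interval of a difference between 2 members is the exact conditional interval of the odds ratio of their reads. Scaling by TMM (edgeR 4.0.16) and by median of ratios (DESeq2 1.42.0), the upper quartile, filters, pseudocounts, other thresholds, TPM and genes of like length were alternatives. The sum of SIK1 and SIK1B and the alternatives of the lists were added after seeing the data. The tests were tried on simulated reads. Python 3.11.15, NumPy 2.4.6, pandas 2.3.3, matplotlib 3.10.9 and R 4.3.3 were used.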

Additional observations from a re-analysis of the deposited data

How the results depend on the processing

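No paired analysis was possible because each condition has 1 library, and for the same reason no replicate could be left out. Members called higher (0) became 3 at 1.5-fold and 2 by TPM, and stayed at 0 under every other alternative run. The median log2 fold change of the members (0.53) became 0.31 with TMM scaling, 0.32 with median of ratios, 0.34 with the upper quartile, 0.35 with a pseudocount of 1 CPM, 0.74 from TPM and 0.078 relative to genes of like length. Relative to genes of like length, SIK2 (-0.18), NUAK1 (-0.077), MARK2 (-0.14) and MARK3 (-9.7e-04) turned below 0. Of all genes, 2742 called higher became 1822 with TMM scaling, 1424 with at least 10 reads in each library, 4634 at 1.5-fold and 687 with the exact test of edgeR and an assumed coefficient of variation of 0.4. The 270 called lower became 572 with TMM scaling, 542 with median of ratios, 454 with the upper quartile, 107 with at least 10 reads in each library, 756 at 1.5-fold and 76 with edgeR's exact test. That test also left 1 of the 5 CREB target genes called. MARK1 is limited by depth, and the SIK1 row by its copy SIK1B, which held nearly all reads of the pair.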

Other observations

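The promoters of the kinases were searched for the cAMP response element, the site that CREB binds, in the letters TGACGTCA on both strands. RefSeq promoter windows (GRCh38.p14, 250 bases before to 50 after the start) were found for 9 of the 10 members, with 2 windows for MARK2. Of these, SNRK alone held the full site, 34 bases before its start, beside 1.85% of 35116 promoters. The stretch is shown because it is the one full match, with the site in capitals.
SNRK (chr3:43286495-43286524, plus strand): cgccccagcgcTGACGTCAcagtgacgcgc
The 5-base core, TGACG or CGTCA (the full site holds both, so that 1 full site counts as 2), was found 3 times in SIK1 and SNRK, 2 times in SIK2 and SIK3, and 1 time in MARK3 and MARK4. NUAK1, NUAK2 and MARK2 held 0. Of all promoters, 24.6% held the core at least once. These matches are letters in a window and show no binding.

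Of 23 pseudogenes named after these kinases, none had reads in Huh7-NC and 3 had reads in Huh7-si, at most 2 each and 4 in all.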
